A study of Mus musculus with 8 samples.

Results

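The genes described here make the enzymes, the folding chaperone and the oxidases that turn a new collagen chain into a crosslinked fibre. They were chosen by symbol: P4ha1, P4ha2 and P4hb (prolyl 4-hydroxylase), Plod1, Plod2 and Plod3 (lysyl hydroxylases), Serpinh1 (the collagen chaperone HSP47), and Lox, Loxl1 and Loxl2 (lysyl oxidase and its relatives). A probe set, the group of short probes that measures 1 transcript on the array, was taken where the platform annotation gave it exactly 1 of these symbols. This held for 9 of the 10 genes and for 16 of the 45037 probe sets. Both probe sets of Loxl2 also carry the symbol Gm21451, so Loxl2 was not described. The other 9 genes were read among 18193 genes of the array, each by its probe set with the highest mean over the 8 arrays, called its main probe set below.

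Dorsal skin came from female mice of the hairless strain Hos:HR-1, 10 weeks old when sampled. The collagen group ate AIN-93G, a purified rodent diet, to which fish scale collagen hydrolysate (collagen cut into small peptides) was added at 2.0 g per 100 g of the control diet, for 1 week, and the control group ate AIN-93G alone. In all 16 mice were kept, 4 to a cage, with 8 on either diet. Arrays were made for 4 samples of each diet and are called collagen 1 to 4 and control 1 to 4 here. All mice share the hairless background, and the labels do not tie arrays to mice or cages, so a cage that differs cannot be told apart from a diet that does. Both groups showed the markers of the labelled tissue, with keratinocyte markers between the 83.8th and the 99.99th percentile of all gene levels and fibroblast markers between the 63.2nd and the 99.9th.

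Collagen chains are modified while they enter the endoplasmic reticulum. Prolyl 4-hydroxylase, built of an alpha subunit (P4ha1 or P4ha2) and the protein disulphide isomerase P4hb, hydroxylates prolines and so makes the triple helix stable at body temperature. The Plod enzymes hydroxylate lysines, Plod2 mainly those of the telopeptides (the chain ends outside the helix) and Plod3 also adding glucose to galactosyl-hydroxylysine. Serpinh1 binds the folded triple helix and escorts it to the Golgi. Outside the cell Lox oxidises lysines of collagen and elastin, which then crosslink, while Loxl1 acts mainly on elastin. In skin these steps set the strength of the dermis, which fibroblasts build. Of these genes, P4ha1, P4ha2, Plod1, Plod2 and Lox are known targets of the hypoxia-inducible factor, whose binding core is ACGTG or GCGTG.

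The promoters of 4 genes are shown, 1 or more from each step inside the cell: P4ha2 and P4hb for prolyl hydroxylation, Plod1 for lysyl hydroxylation and Serpinh1 for folding. Those of P4ha1 and Plod3, the pair that varied most alike below, are not shown, because their windows overlapped an annotated gene (P4ha1 itself and Znhit1). RefSeq's table for GRCm38.p6 held a promoter for 6 of the 10 genes (P4ha1, P4ha2, P4hb, Plod1, Plod3 and Serpinh1), and the 250 bases before the annotated start are used, read 5′ to 3′ on the gene's own strand. Capitals mark the letters ACGTG or GCGTG, on either strand, so that CACGT and CACGC are the same letters on the opposite one.
P4ha2, chr11:54100674-54100923, plus strand: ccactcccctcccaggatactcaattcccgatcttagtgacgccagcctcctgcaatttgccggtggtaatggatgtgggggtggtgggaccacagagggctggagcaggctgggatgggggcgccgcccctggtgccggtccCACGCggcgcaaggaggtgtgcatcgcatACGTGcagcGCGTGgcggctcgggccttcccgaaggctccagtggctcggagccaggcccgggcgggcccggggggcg
Plod1, chr4:147936777-147937026, minus strand: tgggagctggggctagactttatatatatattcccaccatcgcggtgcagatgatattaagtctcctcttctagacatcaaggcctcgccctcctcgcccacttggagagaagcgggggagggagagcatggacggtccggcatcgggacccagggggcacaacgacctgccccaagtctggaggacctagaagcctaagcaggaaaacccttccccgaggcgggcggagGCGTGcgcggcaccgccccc
Serpinh1, chr7:99353240-99353489, minus strand: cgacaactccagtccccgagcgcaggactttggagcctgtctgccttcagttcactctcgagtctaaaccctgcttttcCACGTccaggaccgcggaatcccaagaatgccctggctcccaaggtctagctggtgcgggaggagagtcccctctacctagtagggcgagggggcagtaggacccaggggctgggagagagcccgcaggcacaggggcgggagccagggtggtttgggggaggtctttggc
P4hb, chr11:120573254-120573503, minus strand: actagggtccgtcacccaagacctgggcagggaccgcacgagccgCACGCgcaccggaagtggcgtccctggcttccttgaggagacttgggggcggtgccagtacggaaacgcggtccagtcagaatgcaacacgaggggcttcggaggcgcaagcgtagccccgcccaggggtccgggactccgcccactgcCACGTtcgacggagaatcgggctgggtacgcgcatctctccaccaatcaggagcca
None of these 4 windows overlapped another annotated gene in that table. P4ha2 held ACGTG 78 bases before the start, with GCGTG at 107 and 69 bases before it. In Plod1 the only such letters were GCGTG, 20 bases before the start, and in Serpinh1 they were ACGTG, 171 bases before it. P4hb held 1 of each. Among the 6 promoters 5 had ACGTG, a sequence that 16.6% of 27025 promoters of the same length hold, and 5 had GCGTG, held by 28.2%. The letters GGGCGG, a GC box, were in 5 of the 6, against 32.9% of all promoters. The heat shock core GAANNTTC (6.78% of all promoters) and the endoplasmic reticulum stress element (0.122%) were in none of the 6. These promoters were rich in G and C, at 55.6% to 70% against a median of 52% for all promoters, and the shares were not matched for that composition. All letters were searched on both strands. A match is a description of the letters and shows no binding.

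The main probe sets spanned much of the array's scale. Their deposited log2 values averaged 13.04 for P4hb, 11.63 for Serpinh1, 11.43 for Loxl1, 10.50 for Lox, 10.00 for P4ha1, 9.79 for P4ha2, 9.76 for Plod3, 8.77 for Plod1 and 8.39 for Plod2. P4hb, which also folds many other secreted proteins, lay at the 98.7th percentile of all gene levels, Serpinh1 at the 92.6th and Loxl1 at the 91.0th. Plod2 was the dimmest, at the 40.7th percentile. The largest range of any of these main probe sets over the 8 arrays was 0.00281 log2 units (Lox), less than each step in this order, so the order was the same on all 8 arrays.

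This order is one of probe signals and not of RNA amounts, because each probe set binds its target with its own efficiency. Within a gene the probe sets lay as far apart as the paralogues did. Loxl1 read 11.43 on one probe set and 7.94 on the other, Lox read 10.50, 9.16 and 7.44 on its 3, and P4ha1 read 10.00 and 7.86. The pairs were closer for Plod1 (8.77 and 7.80), Serpinh1 (11.63 and 11.51) and Plod2 (8.39 and 8.32). P4ha2, P4hb and Plod3 had 1 probe set each.

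The deposited values hardly differ between arrays, so differences are given below in millionths of a log2 unit on the deposited scale, and in multiples of the within-group SD. Over all probe sets the median range was 7.36e-06 log2 units. The labels name no summary or normalization method, and no difference is converted to a fold change. The genes kept more of a range than most. Lox, with 0.00281 log2 units, lay at the 97.8th percentile of all genes for its range, P4ha2 at the 96.4th, Serpinh1 at the 94.6th, Plod1 at the 93.2nd and Loxl1 at the 90.9th. P4ha1, Plod3 and Plod2 followed at the 87.7th, 84.3rd and 78.5th percentile. P4hb, with 4.15 millionths, lay at the 32.2nd.

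**Figure D1:**
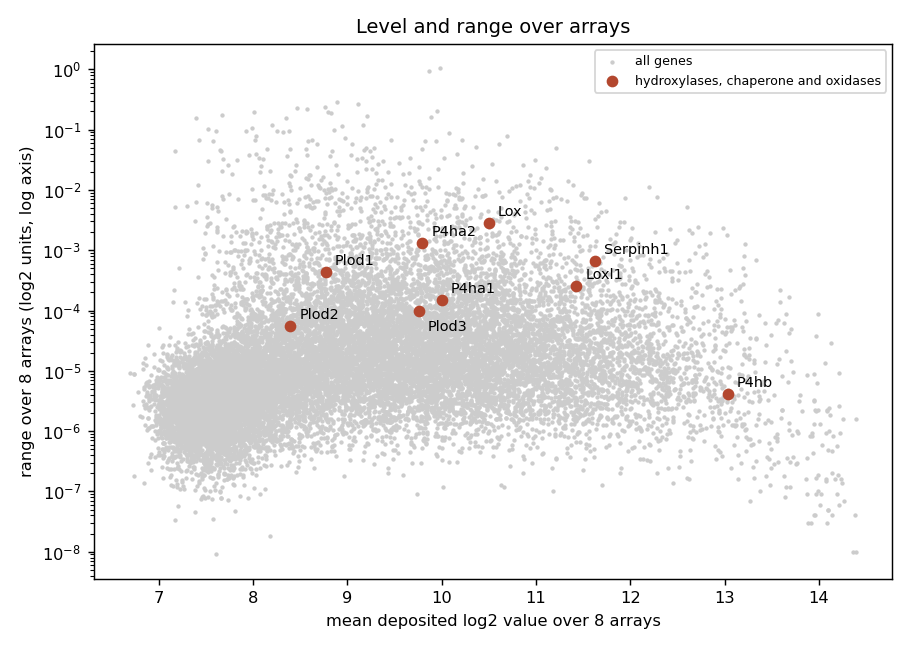
Each grey point is 1 of the genes on the array, with the mean deposited log2 value of its main probe set over 8 arrays on the x axis and its range over those arrays on the y axis (log2 units, log axis). The red points are the 9 genes: Lox and P4ha2 lie near the top of the cloud for their level, and P4hb lies far to the right with a small range.

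The comparison of the diets asks whether 1 week of collagen peptides went with a different level of this machinery in skin. No gene passed. By limma's moderated test over all 18193 genes, 0 of the 9 genes had an adjusted p under 0.05, as did 0 genes on the whole array (0.0%), and the adjusted p of each of the 9 was 0.999. At an unadjusted p under 0.05 there were also 0 of 9, against 3.49% of all genes. The collagen mean lay below the control mean in 7 of 9 genes (P4ha1, P4ha2, Plod1, Plod3, Serpinh1, Lox and Loxl1) against 47.1% of all genes. Plod1 turned higher after quantile normalization, and P4ha1 and Plod3 after median centring, which left 5 of 9 lower against 5.38% of all genes. Median centring moved every difference up alike, that of P4hb from 5.23e-07 to 5.57e-05 log2 units. The median range of all probe sets was 7.36e-06 log2 units, so mainly genes with a wide range could stay lower. As deposited, the median difference of the 9 genes was -0.760 within-group SD, beside 0.0517 for all genes. A difference at or below -1 SD was found in 3 of 9 genes (P4ha2, Plod1 and Loxl1), against 7.69% of all genes. The values of the diets overlapped in all 9 genes, where 2.02% of all genes did not overlap. In whole skin, fewer cells of a type and less RNA per cell cannot be told apart.

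Prolyl 4-hydroxylase pairs either alpha subunit with P4hb. P4ha2, the alpha subunit with the wider range, deviated from its 8-array mean by -158, -653, -298 and 108 millionths in collagen 1 to 4, against 303, 669, 182 and -153 millionths in control 1 to 4. Collagen 1, 2 and 3 lay below all 4 control arrays, and collagen 4 lay above control 4, so the diets overlapped by these 2 arrays. The difference was -500 ± 223 millionths (collagen minus control, limma's SE, n = 4 per diet), or -1.52 SD, with a 95% interval from -1037 to 36.2 millionths and an unadjusted p of 0.0630. P4ha2 is the alpha subunit best known from bone, cartilage and other matrix-rich tissue.

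P4ha1, the more widely expressed alpha subunit, deviated by -16.5, -57.5, -30.9 and 93.1 millionths in collagen 1 to 4, against -52.0, 36.4, 1.51 and 25.9 millionths in control 1 to 4. Both its lowest and its highest array were collagen arrays. The difference was -5.92 ± 37.1 millionths (-0.109 SD; 95% interval -95.0 to 83.1). Its dimmer probe set differed by 3.18 ± 4.50 millionths, in the opposite direction. P4hb, the shared beta subunit, deviated by -0.476, 0.114, -0.656 and 2.06 millionths with collagen, against -0.206, 0.524, 0.724 and -2.09 millionths with the control diet. Here collagen 4 was highest, control 4 was lowest and the rest lay close together. Its difference was 0.523 ± 0.886 millionths (0.414 SD; 95% interval -1.61 to 2.65).

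Among the lysyl hydroxylases, Plod1, which hydroxylates lysines within the helix, deviated by -185, -145, -98.2 and 90.2 millionths in collagen 1 to 4, against -100, 249, 179 and 9.18 millionths in control 1 to 4. Collagen 1 and 2 lay below all control arrays, collagen 3 just above control 1, and collagen 4 within the control range. The difference was -169 ± 96.3 millionths (-1.19 SD; 95% interval -400 to 62.6; unadjusted p = 0.126 by limma). The second Plod1 probe set, at a level of 7.80, had a range of only 0.925 millionths and differed by -0.177 ± 0.278 millionths.

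Plod3, which both hydroxylates and glycosylates lysine, deviated by -3.55, -49.6, -35.6 and 46.9 millionths with collagen, against -42.6, 45.5, 1.77 and 37.2 millionths with the control diet. Its values ran in the same array order as those of P4ha1, from collagen 2 at the bottom to collagen 4 at the top. The difference was -21.0 ± 28.2 millionths (-0.505 SD; 95% interval -88.8 to 46.8), and with 1 array left out it ran from -4.01e-05 log2 units (without collagen 4) to -7.92e-06 (without collagen 2). Plod2, the telopeptide lysyl hydroxylase, deviated by -12.9, -7.75, 17.2 and 21.6 millionths with collagen, against 5.23, 17.2, -33.4 and -7.18 millionths with the control diet. The highest array was collagen 4 and the lowest control 3. Its main probe set differed by 9.05 ± 13.4 millionths (0.461 SD; 95% interval -23.0 to 41.1).

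The second Plod2 probe set, only slightly dimmer than the first, had a far wider range and differed the other way. It deviated by -27.9, -240, 21.2 and -39.9 millionths with collagen, against 7.46, 219, -78.1 and 139 millionths with the control diet. Collagen 2 was the lowest array and control 2 the highest, and the diets overlapped. The difference was -143 ± 84.3 millionths (-1.15 SD), so the sign for Plod2 depends on which of its probe sets is read.

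Serpinh1, the chaperone, deviated by -73.3, -238, 51.4 and -38.0 millionths in collagen 1 to 4, against -169, 423, 41.9 and 3.12 millionths in control 1 to 4. Control 2 stood well above the other arrays, and control 1 lay below 3 of the collagen arrays. The difference was -149 ± 133 millionths (-0.760 SD; 95% interval -470 to 171; unadjusted p = 0.303 by limma), and it was -3.31e-05 log2 units without control 2. Its second probe set deviated by -37.0, -611, -237 and -47.0 millionths with collagen, against 114, 737, 218 and -136 millionths with the control diet. All 4 collagen arrays lay below 3 of the controls there, and control 4 lay among them. That probe set differed by -466 ± 218 millionths (-1.45 SD; unadjusted p = 0.0729 by limma).

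Of the oxidases, Lox, the founding crosslinking enzyme, had the widest range. It deviated by -1321, -1175, -103 and 760 millionths in collagen 1 to 4, against 570, 1491, 660 and -882 millionths in control 1 to 4. Collagen 1 and 2 were lowest, while collagen 4 lay above 3 controls and control 4 lay below the other 2 collagen arrays. The difference was -920 ± 668 millionths (-0.936 SD; 95% interval -2524 to 685; unadjusted p = 0.214 by limma), and it was -5.76e-04 log2 units without control 2. The second Lox probe set differed by -882 ± 744 millionths and the dimmest by -3.14 ± 2.50 millionths, both in the same direction.

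Loxl1, the oxidase linked to elastic fibres, had the smallest p of the 9 genes. It deviated by -131, -156, -53.1 and 83.8 millionths in collagen 1 to 4, against 35.5, 94.1, 100.4 and 26.4 millionths in control 1 to 4. Collagen 1, 2 and 3 lay below all controls, the controls stood close together, and collagen 4 lay inside the control range. The difference was -128 ± 55.1 millionths (-1.58 SD; 95% interval -261 to 4.14), with an unadjusted p of 0.0556 and an adjusted p of 0.999 by limma. The second, dimmer Loxl1 probe set deviated by -8.90, -11.5, -6.32 and 8.21 millionths with collagen, against 2.52, 6.24, 7.29 and 2.44 millionths with the control diet. The same 3 collagen arrays lay below all controls on it, and it differed by -9.25 ± 4.40 millionths (-1.43 SD; unadjusted p = 0.0767 by limma). Over all probe sets of the 9 genes, 13 of 16 had a lower collagen mean, against 46.7% of all probe sets, and 0 of 16 had an unadjusted p under 0.05, against 3.55%.

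**Figure D2:**
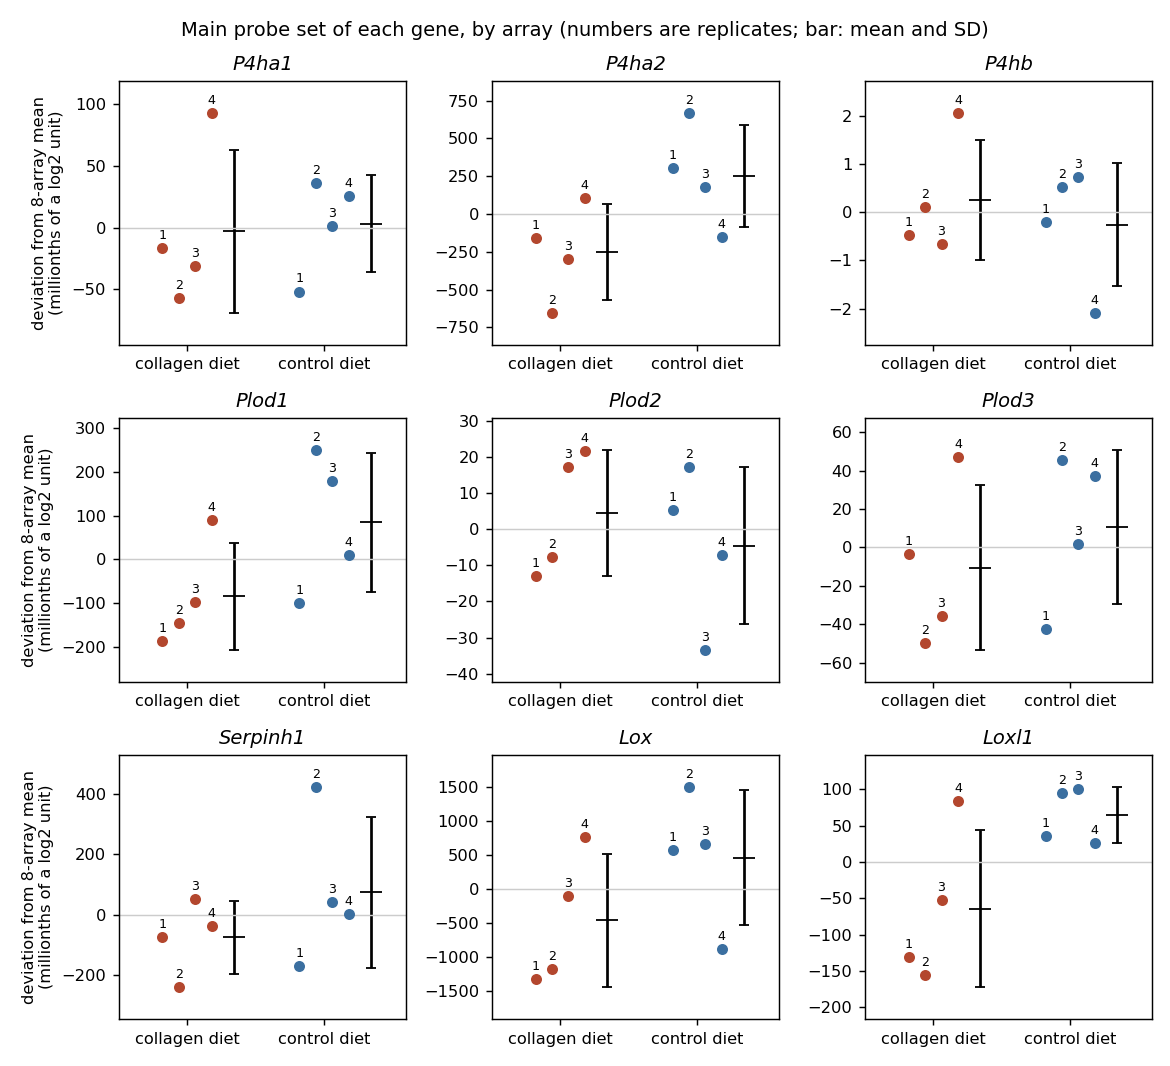
Each panel shows 1 gene, with the deviation of its main probe set from the 8-array mean (millionths of a log2 unit, a separate scale per panel) for the 4 collagen arrays in red and the 4 control arrays in blue, and bars at the group mean with the SD. Collagen 4 lies at or near the top of most panels and away from the other collagen arrays, and the diets overlap in all 9 panels.

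**Figure D3:**
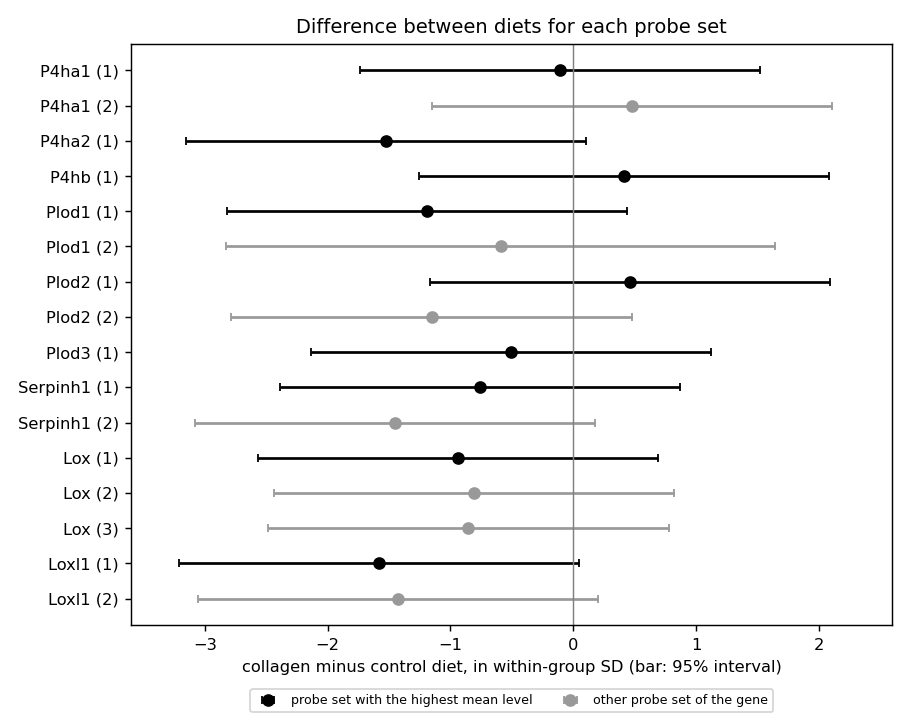
Points are the difference of each probe set, collagen minus control, in within-group SD, with limma's 95% interval as the bar; black is the main probe set and grey another probe set of the gene. All 16 intervals include 0, and 13 of the 16 points lie to the left of it.

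Single arrays held most of these extremes. Collagen 2 had the lowest value in 5 of the 9 genes and collagen 1 in 2, while collagen 4 had the highest in 4, control 2 in 4 and control 3 in 1. Averaged over the 9 genes as z values (deviation over the SD of the 8 arrays), collagen 1 to 4 scored -0.666, -1.01, -0.317 and 0.897, against -0.202, 1.21, 0.257 and -0.175 in control 1 to 4. Collagen 4 thus lay above 3 of the control arrays. Without collagen 4, 8 of 9 genes were lower with collagen, against 51.2% of all genes. By limma 2 of the 9 then had an unadjusted p under 0.05, and 0 had an adjusted p under 0.05. Of all 18193 genes, 1552 had an unadjusted p under 0.05 in that setting, against 635 as deposited. Without collagen 2 or without control 2, 6 of 9 were lower, against 46.0% and 49.2% of all genes.

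The genes varied together over the arrays. All 36 pairs of main probe sets had a positive Pearson correlation over the 8 arrays, with a median r of 0.511, where 51.1% of all 163674 pairs of one of these genes with any gene were positive with a median r of 0.0147. After each diet's own mean was taken out, all 36 were still positive, with a median r of 0.584. An r of at least 0.7 was reached by 9 pairs of the 36, against 5.55% of pairs with any gene. This rested partly on 2 arrays, chosen after their values were seen: without collagen 4 and control 2, on which most of the genes were high, 23 of 36 pairs were positive and the median r was 0.262. After quantile normalization, which left P4hb without variation, 15 of 28 pairs were positive and the median r was 0.108. By an exact permutation test 8 of the 36 pairs had an unadjusted p under 0.05 by r and 9 by rho, and after adjustment over all 163674 pairs 0 passed.

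P4ha1 and Plod3 were the closest pair. Their r was 0.933 (exact permutation p = 1.74e-04, adjusted p = 0.272) and their rho 1.0 (exact p = 4.96e-05, the smallest this test can give, adjusted p = 0.226), which means that the 8 arrays fell in the same order for both. Without collagen 2 and collagen 4, the 2 arrays farthest from the median of P4ha1, r was 0.982, and it was 0.955 within diets. Of all genes, 0.220% correlated with P4ha1 at least as strongly. The second P4ha1 probe set had an r of 0.196 with the main one, and Plod3 had only 1, so other probes did not repeat this order. P4ha1 and P4ha2, the alternative alpha subunits of 1 enzyme, had an r of only 0.45, and P4hb reached no more than 0.45 with either of them.

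A second group joined P4ha2, Plod1, Lox and Loxl1. Plod1 with Loxl1 had an r of 0.864 and a rho of 0.881 (exact permutation p = 0.00831 and 0.00724, adjusted p = 0.365 and 0.354). Its r was 0.854 without the 2 arrays farthest from the median of Plod1, and the gene named first sets these arrays below. P4ha2 with Lox had an r of 0.858 and a rho of 0.786 (exact p = 0.00598 and 0.0279, adjusted p = 0.351 and 0.442), and 0.728 without 2 arrays. The 2 oxidases, Lox and Loxl1, had an r of 0.856 and a rho of 0.881 (exact p = 0.00995 and 0.00724, adjusted p = 0.379 and 0.354), which was 0.646 without collagen 1 and collagen 2. The remaining pairs of this group ran from 0.732 (P4ha2 with Plod1) to 0.817 (P4ha2 with Loxl1). Without 2 arrays r was 0.432 for P4ha2 with Plod1, 0.596 for Plod1 with Lox and 0.689 for P4ha2 with Loxl1. The group has no sharp edge, since Plod1 with Serpinh1, at 0.767, lay within that span.

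Several correlations of Serpinh1 depended on single arrays. Its r with Plod1, 0.767 (rho 0.762; exact permutation p = 0.0138 and 0.0368, adjusted p = 0.397 and 0.468), was 0.420 without the 2 arrays farthest from the median of Plod1. Its r with P4ha2, 0.687 (rho 0.381; exact p = 0.0619 and 0.360, adjusted p = 0.541 and 0.791), was -0.543 without collagen 2 and control 2, so that this relation rested on those arrays. With Lox and Loxl1, r was 0.628 and 0.560, and -0.0515 and 0.107 without the same arrays. For the other 4 pairs of Serpinh1, the 2 arrays left out were those farthest from the median of the partner gene. Control 2, the highest array of Serpinh1, stayed in all 4. Their r was then higher: 0.749 against 0.486 over all 8 arrays with P4ha1, 0.681 against 0.632 with Plod3, 0.652 against 0.300 with Plod2 and 0.405 against 0.105 with P4hb. The weakest pairs over all 8 arrays were Plod1 with Plod2 (r = 0.071) and P4hb with Serpinh1. No link between these correlations and the promoter letters printed above was tested.

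**Figure D4:**
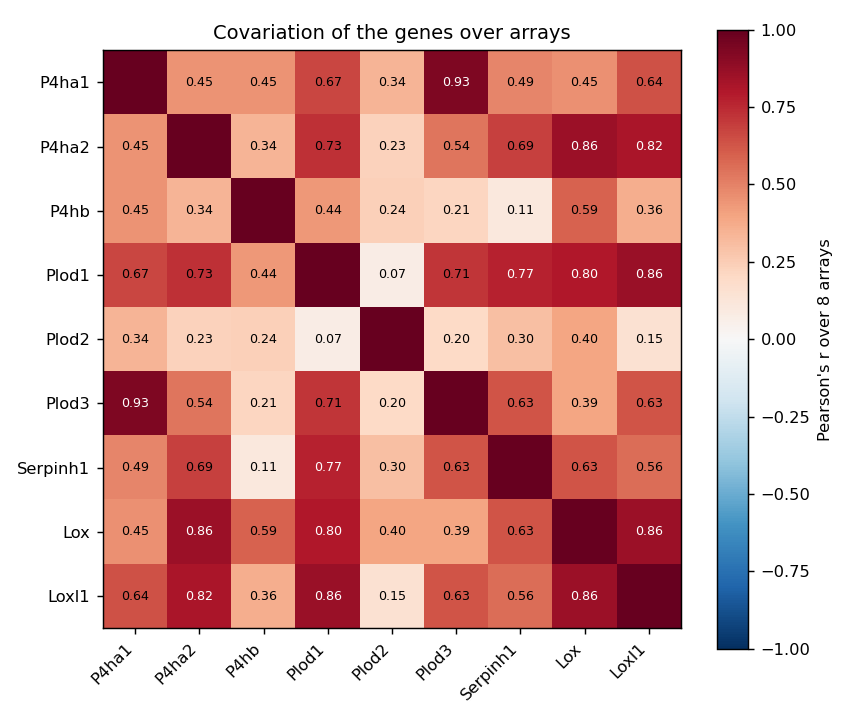
The grid gives Pearson's r over the 8 arrays for each pair of the 9 main probe sets, coloured from -1 (blue) to 1 (red). All 36 pairs are positive; P4ha1 with Plod3 is darkest, P4ha2, Plod1, Lox and Loxl1 form a second dark group, and the rows of P4hb and Plod2 are pale.

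Probe sets of the same gene show how far such a pattern repeats within a gene, in 8 pairs. The Loxl1 probe sets had an r of 0.987 (rho 0.929; exact permutation p = 2.23e-04 and 0.00223) and the 2 brightest of Lox one of 0.942 (rho 0.976; exact p = 7.94e-04 and 3.97e-04). For these 2 genes the pattern over the arrays was thus seen by separate probes. The Serpinh1 pair had an r of 0.814 but a rho of 0.405 (exact p = 0.0284 and 0.327), and an r of -0.324 without the 2 outermost arrays of its main probe set. The others were weaker, at 0.393 for Plod2, 0.196 for P4ha1 and -0.147 for Plod1, and the dimmest Lox probe set had 0.506 and 0.517 with the other two.

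The substrate genes were set beside these enzymes. Col1a1, Col1a2, Col3a1 and Col5a1 encode chains of the fibrillar collagens of the dermis, Col3a1 being named in addition to the rule for named genes. Lox followed all 4, with an r of 0.967 and a rho of 0.905 for Col5a1 (exact permutation p = 2.48e-04 and 0.00456, adjusted p = 0.272 and 0.328), 0.948 for Col1a2, 0.926 for Col1a1 and 0.925 for Col3a1. Without the 2 arrays farthest from the median of Lox these were 0.966, 0.879, 0.861 and 0.912. P4ha2 and Loxl1 had their highest r with Col5a1 too, at 0.897 and 0.898, and 0.754 and 0.615 without 2 arrays. P4ha1 and Plod3, the closest pair of enzymes, had an r of 0.0905 and 0.0711 with Col1a1 and of 0.472 and 0.436 with Col5a1. None of these 36 pairs of an enzyme and a collagen passed after adjustment over all pairs.

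For each gene of the group, a gene outside it came closer than any other gene of the group did. The outside genes were the best of a far larger number of candidates, so their higher r does not by itself show a closer relation. Of 11597 genes at or above the median level, the 2 most alike were taken for each by r over 8 arrays, as a description. For Lox these were C1qtnf6 (r = 0.984) and Gpr153 (0.983), and for Loxl1 Pnpla7 (0.982) and Cd248 (0.982). For P4ha2 they were Rian (0.989) and Itga9 (0.988), for Plod1 Zfp740 (0.982) and Gaa (0.978), and for Plod3 Emilin2 (0.971) and Hps6 (0.969). P4ha1 was closest to Ccdc12 (0.980) and Fxyd5 (0.980), Serpinh1 to Cped1 (0.938) and Sec61a2 (0.924), P4hb to 2010320M18Rik (0.938) and Rragc (0.928), and Plod2 to Tspan15 (0.947) and Slc39a10 (0.913). The smallest adjusted p over all 163674 pairs was 0.254 by the exact permutation test on r.

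The rest of the collagen pathway was read from lists. Over all 18193 genes 47.1% had a lower collagen mean and the median difference was 0.0517 SD. Of 13 measured genes in a list of other hydroxylation, glycosylation and prolyl 3-hydroxylation genes, which also holds isomerases and partner proteins such as Fkbp7 and Crtap, 10 had a lower collagen mean, with a median difference of -0.582 SD, and 0 passed the adjusted test. Fkbp7, a prolyl isomerase of the endoplasmic reticulum, differed by -2.97e-04 ± 1.53e-04 log2 units, P3h1, a prolyl 3-hydroxylase, by -3.24e-05 ± 1.98e-05 and its partner Crtap by -4.28e-05 ± 2.65e-05. P4ha3, the third alpha subunit, lay on the other side at 1.06e-05 ± 5.53e-06. Of 14 measured genes of collagen export, propeptide cleavage and crosslinking, 12 were lower (median -0.832 SD) and 0 passed. Pcolce, which enhances cleavage of the propeptide, differed by -2.17e-04 ± 1.11e-04 and Sparc, a collagen-binding matrix protein, by -9.09e-05 ± 4.96e-05.

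The substrates showed the same sign. Of 9 fibrillar collagen genes 8 had a lower collagen mean (median -0.778 SD), 0 passed the adjusted test and 1, Col2a1 of cartilage, at a low signal in skin, had an unadjusted p under 0.05 by limma, where 3.49% of all genes did. Of 10 elastic fibre genes, the other substrates of the oxidases, 8 were lower (median -0.737 SD) and 0 passed, with elastin (Eln) at -3.71e-05 ± 2.26e-05 and the microfibril gene Mfap2 at -0.00135 ± 7.90e-04. Of 14 protein disulphide isomerases and endoplasmic reticulum chaperones 5 were lower (35.7%), against 47.1% of all genes, with a median of 0.262 SD. Of these 0 passed, with Canx (calnexin) at 8.28e-07 ± 3.72e-07 and Pdia4 at 2.24e-06 ± 1.03e-06. No difference between these lists was tested.

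Known inducers of the enzymes were read through their response genes. Of 15 hypoxia response genes 10 had a lower collagen mean (median -0.371 SD), against 47.1% of all genes, and 0 passed the adjusted test. Slc2a1, a glucose transporter, lay higher without overlap between the diets (2.02% of all genes had none), by 3.62e-06 ± 7.86e-07 (unadjusted p = 0.00300 and adjusted p = 0.999 by limma), and Ldha and Vegfa differed by -1.84e-05 ± 1.31e-05 and -5.21e-06 ± 3.81e-06. Of 11 TGF-beta response genes 5 were lower, a share near that of all genes (median 0.252 SD), and 0 passed, with Ccn2 at 9.14e-04 ± 7.90e-04 and Smad7 at -6.74e-07 ± 6.22e-07.

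Markers of several cell types in the sample lay on the same side as these genes. Of 11 fibroblast markers 10 had a lower collagen mean (median -0.600 SD), against 47.1% of all genes, with Twist2 at -2.65e-05 ± 1.31e-05 and Pdgfra at -7.10e-05 ± 3.73e-05, and their mean deposited value ran from 11.65505 to 11.65549 in the collagen arrays and from 11.65528 to 11.65555 in the control arrays. Their mean z was lowest in collagen 2 (-1.43) and highest in collagen 4 (0.767), as it was for the 9 genes among the collagen arrays. All 8 endothelial markers (median -0.930 SD), 15 of 16 skeletal muscle markers (-0.824 SD), 10 of 12 hair follicle markers (-0.590 SD) and 7 of 8 macrophage and dendritic cell markers (-0.669 SD) were lower as well. Adipocyte markers were lower in 3 of 6 (0.0933 SD) and keratinocyte markers in 2 of 10 (0.542 SD). No marker of any of these lists passed the adjusted test. At an unadjusted p under 0.05 by limma, where 3.49% of all genes lay, were Cd207 of Langerhans cells (-2.40e-05 ± 6.94e-06, no overlap), Itgax of dendritic cells (-1.51e-04 ± 4.72e-05) and Casq1 of muscle (-0.00284 ± 0.00114). Their unadjusted p was 0.0119, 0.0170 and 0.0441 and their adjusted p 0.999 by limma. Beside Cd207 on the lower side, 1 keratinocyte marker lay higher without overlap, where 2.02% of all genes did not overlap in either direction. The dimmest marker was Tie1 of endothelium, at the 16.4th percentile of gene levels, and signal over background is unknown.

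The mean values of these marker lists overlapped between the diets. In the collagen arrays endothelial markers averaged 8.99053 to 8.99060, against 8.99058 to 8.99062 in the control arrays. Skeletal muscle markers averaged 12.22411 to 12.26033 with collagen, against 12.20647 to 12.27433 with the control diet, and hair follicle markers 9.83433 to 9.86296, against 9.84400 to 9.85815. Macrophage and dendritic cell markers averaged 11.53104 to 11.53202 with collagen, against 11.53145 to 11.53207. Adipocyte markers averaged 11.09195 to 11.09238 with collagen, against 11.09196 to 11.09223, and keratinocyte markers 12.90204 to 12.90225, against 12.90198 to 12.90212. With either the muscle score or the gap between the 3′ and 5′ Gapdh control probe sets as a covariate, 6 of the 9 genes were lower and 0 passed. Of all genes, 48.5% were lower with the muscle score and 48.1% with the Gapdh gap. The part of the other cell types in the pattern of the 9 genes was not tested.

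**Figure D5:**
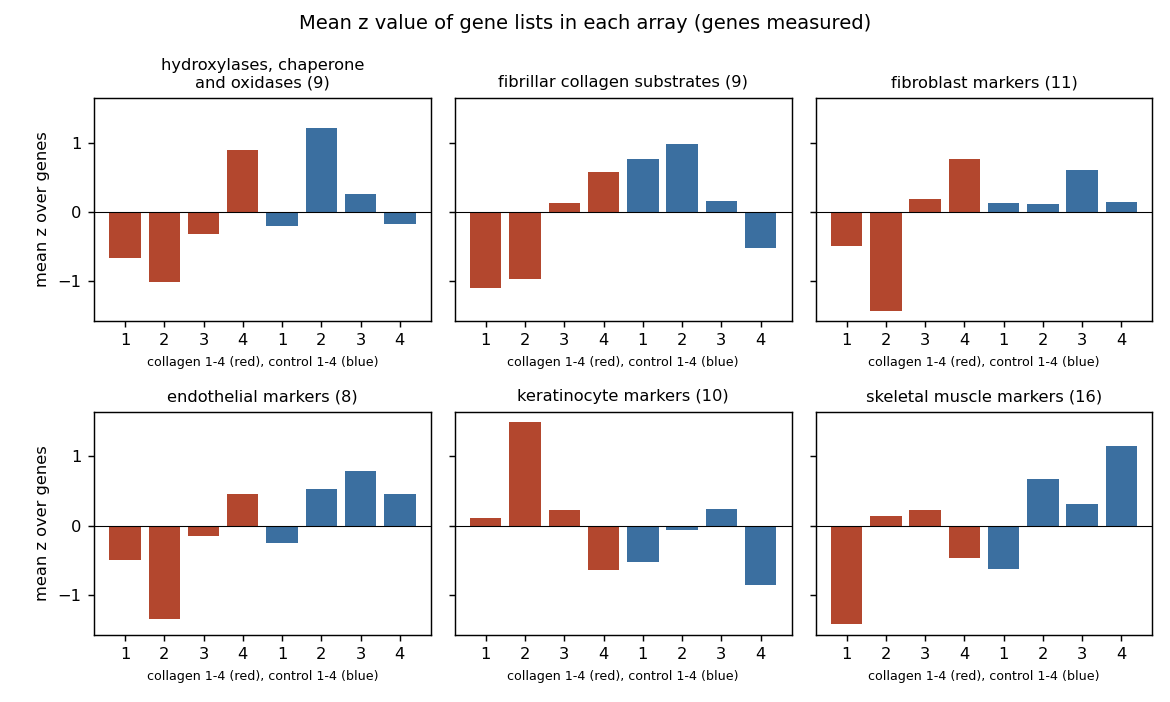
Bars give the mean z value over the genes of 6 lists in each array, collagen 1 to 4 in red and then control 1 to 4 in blue. The 9 genes, the fibrillar collagens, the fibroblast markers and the endothelial markers are low in collagen 1 and 2 and positive in collagen 4, and keratinocyte markers are highest in collagen 2.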

How the data were processed

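Per the labels' protocols, RNA of dorsal skin was labelled with biotin and measured on arrays of 1 colour. The authors deposited log2 values for 45101 probe sets on 8 arrays, read as log2 from their range. The submitters' processing notes name R 2.7.2, and how probes were summarised and normalized is not given in the sources used. Signal over background is unknown, and the number of arrays limits the precision. The labels call the arrays biological replicates.

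Values were used as deposited, without the 64 control probe sets. Of the other 45037, 34945 had 1 gene symbol, 932 several and 9160 none. Of the 34945, 34741 were found in RefSeq (GRCm38.p6) by their Entrez number, with the same symbol.

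Genes and probe sets were each tested in 1 fit by lmFit and eBayes (limma 3.58.1, R 4.3.3; two-sided, Benjamini-Hochberg, threshold 0.05; prior degrees of freedom 0.488 and 0.514). Correlations used an exact two-sided permutation test over 40320 orders, computed with numpy 2.4.6 and scipy 1.17.1, and were adjusted over all 163674 pairs of one of the genes with any gene. With Loxl2 unread, 36 pairs replaced the planned set. Protein sequences were not used here.

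The genes, lists and tests were chosen with earlier results of these data known. Named genes were all members, up to 4 genes with the smallest p in each of 14 other lists, and the 2 genes most alike to each member. Alternatives left out each array, changed the scaling, filter, variance model or probe set, or added a covariate, a block for the replicate number or array weights.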

Additional observations from a re-analysis of the deposited data

How the results depend on the processing

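No setting gave an adjusted p under 0.05 for any of the 9 genes or for any gene on the array, while genes at an unadjusted p under 0.05 numbered 635 as deposited, 72 after median centring and 1552 without collagen 4. For probe sets, quantile normalization gave 2 calls and every other setting 0. Of the 9 genes, 5 (median centring) to 8 were lower with collagen, and 6 to 8 with 1 array left out. With 1 array left out, 46.0% to 51.2% of all genes were lower. P4ha2, Serpinh1, Lox and Loxl1 kept their direction in each setting, though not their size: with 1 array left out, the difference ran from -6.35e-04 to -3.61e-04 for P4ha2, from -2.30e-04 to -3.31e-05 for Serpinh1, from -0.00137 to -5.76e-04 for Lox and from -1.77e-04 to -9.77e-05 for Loxl1. For Plod1 it ran from -2.30e-04 to -1.14e-04 and for Plod3 from -4.01e-05 to -7.92e-06. Loxl1 had the smallest unadjusted p of any setting, 0.00222 by limma, and no adjusted p of these genes was below 0.519. In the same way, the difference ran from -3.79e-05 to 1.23e-05 for P4ha1, from -8.58e-08 to 8.51e-07 for P4hb and from -5.72e-07 to 1.63e-05 for Plod2. P4ha1 also turned to 4.93e-05 after median centring, 1.05e-05 with the Gapdh covariate, 3.69e-06 with the muscle covariate and 3.18e-06 on its second probe set. P4hb turned to -1.18e-07 with array weights, Plod1 to 1.20e-04 after quantile normalization, Plod3 to 3.42e-05 after median centring and Plod2 to -1.43e-04 on its second probe set. The number of positive pairs was 30 to 36 with 1 array left out, 15 of 28 after quantile normalization and 23 of 36 without collagen 4 and control 2. It was 32 of 36 after median centring and 30 of 36 with the second brightest probe sets, where the median r was 0.404. These settings for pairs were chosen after seeing the data. The cause of these turns was not tested.

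Same-numbered arrays of the diets correlated at 0.362, 0.0486, 0.215 and 0.0111 in their deviations. The control array most alike was the same-numbered one for collagen 1 and collagen 3, but another one for collagen 2 and collagen 4. The numbers were not taken to pair the mice, though these values do not settle whether they do. With the replicate block 7 of 9 genes were lower, against 47.1% of all genes, and 0 genes passed. An unadjusted p under 0.05 by limma was then found for 0 of the 9 genes and for 1110 of all 18193. With array weights 8 of 9 genes were lower, against 48.8% of all genes, and 0 genes passed. By limma 3 of the 9 then had an unadjusted p under 0.05, as did 1470 of all 18193 genes.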
